A study of Homo sapiens with 2 samples.

Results

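The high mobility group (HMG) chromatin protein genes were examined as a set of 9: HMGN1, HMGN2, HMGN3, HMGN4, HMGA1, HMGA2, HMGB1, HMGB2 and HMGB3. Their cytosines were taken from exons of GENCODE basic transcripts on the same strand, at a coverage of at least 10 reads, and 5′UTR, CDS and 3′UTR were counted apart, with the 5′UTR first and the CDS second where transcripts differed. The sites were thus chosen by their coverage, and the genes were proposed with earlier results of these reads in view. MCF10A had 1331 such sites among 1584002 kept in all, and MDA-MB-468 had 833 among 1271253. All 9 genes had a kept site in MCF10A, among 8858 protein-coding genes with one. In MDA-MB-468 8 of the 9 had a kept site, among 8089, because no HMGA2 site was kept there.

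HMG proteins are abundant nonhistone proteins of the nucleus that bind chromatin with little preference for sequence and change its shape. The HMGN proteins bind the nucleosome itself and counter its compaction by linker histone. The HMGA proteins hold AT-hook motifs that enter the minor groove of AT-rich DNA, and the HMGB proteins carry HMG boxes that bend DNA. HMGA1 and HMGA2 are known for high levels in embryonic and in many tumor cells. The messages of this family have left many processed pseudogenes in the genome, so their coding sequences have near copies elsewhere.

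RNA bisulfite sequencing (RNA BS-Seq) was used to measure 5-methylcytosine (m5C). Bisulfite turns unmethylated cytosines into uracil, and a read that still shows cytosine at a site counts as unconverted. The established cell lines MCF10A, from normal breast epithelium, and MDA-MB-468, from a breast cancer, gave 1 library each from poly(A)-selected RNA, with no treatment or engineered allele in the labels. With no replicates, each test compares reads of the libraries and not the lines, and each interval covers counting error only.

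The kept sites of the whole libraries held 60580227 counts in MCF10A against 42429746 in MDA-MB-468, of which 1.99% and 1.81% were unconverted. A site was called m5C when its unconverted count exceeded that background (one-sided Fisher's exact test, Benjamini-Hochberg adjustment over all kept sites of the library, threshold 0.05). Reads carried no molecular identifiers, and neighboring sites share reads, so a run of calls is not a run of independent measurements. An interval over the summed counts of several sites treats these counts as independent and is therefore too narrow. Of the epithelial keratin genes KRT5, KRT17, KRT8 and KRT18 had kept sites in both libraries and KRT14 in neither, while CDH1 and EPCAM had kept sites in MDA-MB-468 alone. The leukocyte genes PTPRC and CD3E and the endothelial genes VWF and CDH5 were at 0 in both libraries. CD14 had 15 kept sites in MCF10A against 308 in MDA-MB-468, the fibroblast gene COL1A1 had 0 and 267, DCN had 156 and 0, and COL1A2 had 0 in both. PECAM1 was not found under that name in the annotation.

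The sequences around the called sites differed in how many cytosines of a stretch were called. They are shown before the values because the results turn on whether 1 cytosine or a whole run resisted conversion. Each is GRCh37 sequence written 5′ to 3′ on the strand of the gene, and capitals mark the cytosines called in the library named.
HMGA1 5′UTR, both libraries, chr6:34204992-34205020, plus strand: ctaccagcggcggcCgcggcggagccagg
HMGA1 CDS, MCF10A, chr6:34208624-34208652, plus strand: aagcggggccggggCaggccgcgcaagca
HMGA1 3′UTR, MCF10A, chr6:34213759-34213787, plus strand: gtggggaagaggggCtggggcatggcagg
HMGA1 3′UTR, MCF10A, chr6:34213793-34213822, plus strand: tgaccgactaCCCCagtCCCagggaaggtg
HMGA1 3′UTR, MDA-MB-468, chr6:34213794-34213823, plus strand: gaccgactaccCCagtcCCagggaaggtgg
HMGA2 5′UTR, MCF10A, chr12:66218877-66218906, plus strand: ttgatggtggCagCggCggCagcctaagca
HMGA2 CDS, MCF10A, chr12:66219064-66219092, plus strand: gtgagggcgcggggCagccgtccacttca
HMGN2 5′UTR, MCF10A, chr1:26798960-26798989, plus strand: ccagCgCtataaaaaCtttataaaCCcccc
HMGN2 5′UTR, MDA-MB-468, chr1:26799075-26799104, plus strand: tacgtccCgCtgCCgtCgCCgcCgccacca
HMGN3 5′UTR, MCF10A, chr6:79944296-79944325, minus strand: gcagttccagtcCgttgCtttactttttgc
HMGB2 5′UTR, MDA-MB-468, chr4:174255483-174255512, minus strand: gataaacCagttcacgCCggagCCccgtga
A single cytosine was called in each library in the HMGA1 5′UTR, whereas 8 of the 9 kept cytosines within the HMGN2 stretch of MDA-MB-468 were called.

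In MCF10A 35 of the 1331 HMG sites were called (2.63%), where 0.960% of all kept sites were. In MDA-MB-468 20 of 833 were called (2.40%), where 0.840% of all kept sites were. The 5′UTRs held 17 of the MCF10A calls among 505 sites (3.37%, against 2.24% of all 5′UTR sites), and 14 of the MDA-MB-468 calls among 282 sites (4.96%, against 1.95%). Most of the second count came from 1 gene, and without HMGN2 the share in MDA-MB-468 5′UTRs was 2.54%. Leaving out HMGN2 also brought the MCF10A value down, to 11 of 443 sites (2.48%), close to the 2.24% of all 5′UTR sites. With any other member left out, the MCF10A value stayed at 2.98% or above. Without HMGA1 no 3′UTR call was left in either library.

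In coding sequence 5 of 383 sites were called in MCF10A (1.31%, against 0.615% of all CDS sites) and 0 of 263 in MDA-MB-468 (against 0.551%). Without HMGA2, which held 3 of the 5, the MCF10A share was 0.671%. In 3′UTRs 13 of 443 sites were called in MCF10A (2.93%, against 0.837%) and 6 of 288 in MDA-MB-468 (2.08%, against 0.739%). Pooled over all HMG sites, the share of unconverted reads was 1.94% in MCF10A, equal to the 1.94% of all mRNA sites. In MDA-MB-468 the pooled share was 2.08% against 1.72%. In 5′UTRs it was 1.95% in MCF10A (95% Wilson interval 1.84 to 2.07) against 2.70% for all mRNA sites, and 2.08% in MDA-MB-468 (1.88 to 2.31) against 2.56%. In the CDS it was 2.16% (2.02 to 2.31) against 1.81% in MCF10A, and 2.09% (1.85 to 2.35) against 1.63% in MDA-MB-468. In 3′UTRs it was 1.78% (1.67 to 1.89) against 2.06%, and 2.08% (1.88 to 2.29) against 1.71%. The HMG share lay below all mRNAs in the 5′UTR of both libraries and above them in the CDS of both, and changed side in the 3′UTR. The 5′UTR value was carried by HMGA1, since without it the share was 2.58% in MCF10A, still under 2.70%, but 3.16% in MDA-MB-468, above 2.56%.

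**Figure D1:**
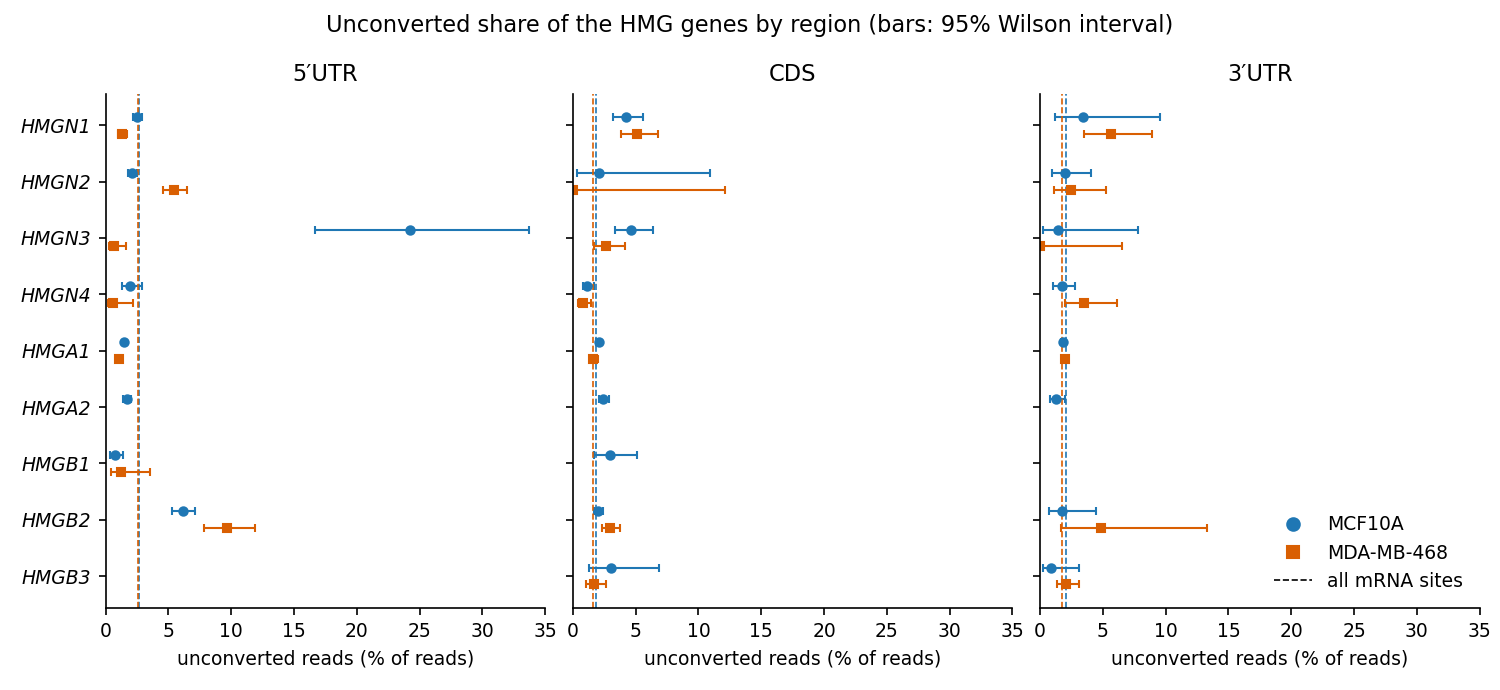
Unconverted reads as a percentage of reads (x axis) for each HMG gene (y axis), in the 5′UTR, CDS and 3′UTR panels, with circles for MCF10A, squares for MDA-MB-468, 95% Wilson intervals as bars and dashed lines for all mRNA sites of the region. Most genes lie near the dashed lines, while the HMGN3 5′UTR in MCF10A (24.2%), the HMGN2 5′UTR in MDA-MB-468 (5.43%) and the HMGB2 5′UTR in both (6.14% and 9.67%) stand to the right. Other points to the right include the HMGN1 CDS in both (4.25% and 5.15%) and the HMGN3 CDS in MCF10A (4.64%). The HMGN1 3′UTR in MDA-MB-468 (5.61%) is another.

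By gene, the MCF10A calls were 15 in HMGA1, 7 in HMGA2, 6 in HMGN2, 3 in HMGB2, 2 in HMGN1 and 2 in HMGN3. The MDA-MB-468 calls were 8 in HMGN2, 7 in HMGA1 and 5 in HMGB2. HMGN4, HMGB1 and HMGB3 had no call in either library. Calls no more than 10 nt apart were joined, which gave 7 stretches and 11 single calls in MCF10A and 4 stretches and 1 single call in MDA-MB-468. The sites described from here with a ratio under 20% in the library where they were called were chosen after their values were seen.

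HMGA1 encodes the AT-hook protein that was covered most deeply of the 9. Its 5′UTR call at chr6:34205006 lies in exon 1 or 2, in 4 of 7 transcripts, 70 to 357 nt from the 5′ end. In MCF10A 75 of 298 reads were unconverted there, a methylation ratio of 25.2% (95% Wilson interval 20.6 to 30.4; Fisher's exact test, adjusted p = 6.54e-55). In MDA-MB-468 9 of 61 were unconverted, a ratio of 14.8% (7.96 to 25.7; Fisher's exact test, adjusted p = 3.04e-04). The 7 kept cytosines within 10 nt had ratios of 0.889% to 2.69% in MCF10A and 0 to 2.25% in MDA-MB-468, so in both libraries 1 position stood apart from its neighbors. The cytosine was not predicted to pair, and the 51 nt around it, with C read as T, matched no other place in the converted genome. The ratio was 10.4 percentage points lower in MDA-MB-468, a difference that did not pass the two-sided Fisher's exact test (p = 0.0967, adjusted p = 1.0).

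The CDS of HMGA1 held 1 call, at chr6:34208638, a coding position of all 7 transcripts. In MCF10A 39 of 665 reads were unconverted (5.86%; Fisher's exact test, adjusted p = 1.07e-06) and in MDA-MB-468 10 of 184 (5.43%; adjusted p = 0.183). The ratios nearly coincided (Fisher's exact test between the libraries, adjusted p = 1.0), and the read number differed. The 6 kept neighbors within 10 nt in MCF10A reached 3.51%. A second window of this site, of 31 nt, matched 1 other place in the converted genome, while the one of 51 nt matched none.

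All 3′UTR calls of the family were in HMGA1, 13 in MCF10A with 6 in MDA-MB-468, and none was predicted to pair. At chr6:34213773 25 of 224 reads were unconverted in MCF10A (11.2%; Fisher's exact test, adjusted p = 1.87e-09) and 19 of 159 in MDA-MB-468 (11.9%; adjusted p = 4.24e-08). The libraries thus gave nearly the same ratio at this site. Its neighbor at chr6:34213779 was called in MDA-MB-468 alone, with 16 of 192 reads (8.33%; Fisher's exact test, adjusted p = 1.20e-04) against 14 of 295 in MCF10A (4.75%; adjusted p = 0.20), and the difference did not pass the test between the libraries (adjusted p = 1.0).

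Some 30 nt downstream, all 7 cytosines from chr6:34213803 to chr6:34213812 were called in MCF10A, at 5.98% to 14.4% and a coverage of 222 to 234. In MDA-MB-468 they had ratios of 5.63% to 9.42% at a coverage of 137 to 142, and 4 of the 7 were called. At chr6:34213812 32 of 222 reads were unconverted in MCF10A (14.4%), against 10 of 137 in MDA-MB-468 (7.30%), with p = 0.0437 by Fisher's exact test and an adjusted p of 1.0. The 51 nt windows of the last 3 cytosines of this run matched 1 other place, within MFSD2B, and the 31 nt windows of all 7 matched 1 other place. The other MCF10A calls of this UTR were single calls or a pair of adjacent calls at lower coverage. At chr6:34213192 and chr6:34213193 5 and 4 of 19 reads were unconverted (26.3% and 21.1%; Fisher's exact test, adjusted p = 0.00412 and 0.04998), with 1 of 7 reads at each in MDA-MB-468, and their windows matched 3 other places.

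**Figure D2:**
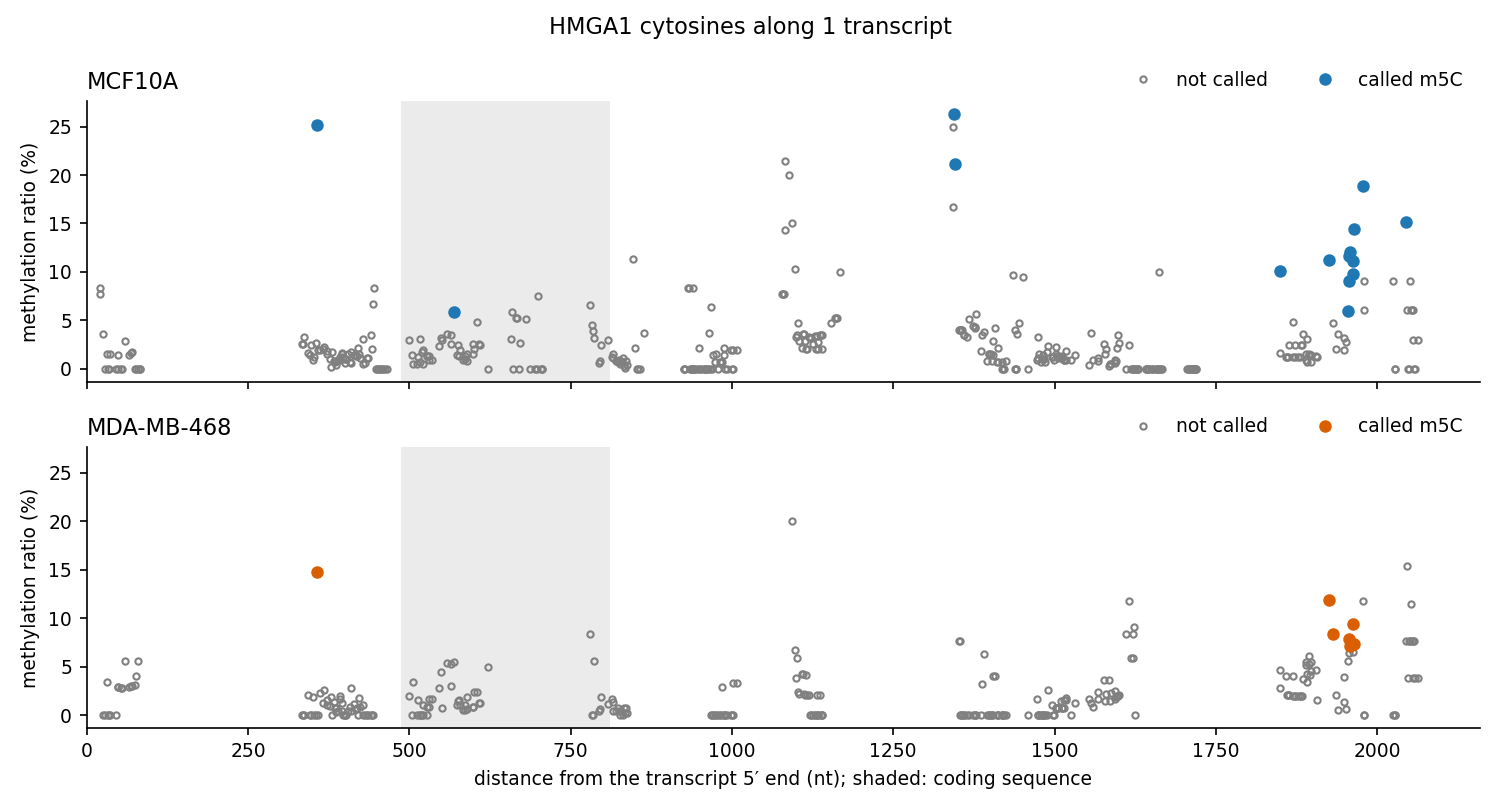
Methylation ratio (y axis, percent) of HMGA1 cytosines by distance from the 5′ end of the longest transcript with the 5′UTR call (x axis, nt), for MCF10A above and MDA-MB-468 below, with filled points for called sites, open points for others and shading for the coding sequence. The 5′UTR call (25.2% and 14.8%) stands alone in both panels, and the remaining calls of MDA-MB-468 fall within the group near the 3′ end.

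HMGA2, the oncofetal AT-hook protein, had 280 kept sites in MCF10A and none in MDA-MB-468, where no HMGA2 site at all was listed, so nothing can be said of its methylation in that line. In the 5′UTR 4 cytosines that lie 3 nt apart, from chr12:66218887 to chr12:66218896, had 6 of 37, 6 of 38, 9 of 42 and 6 of 43 reads unconverted. Their ratios of 14% to 21.4% lay close together, the highest at chr12:66218893 (Fisher's exact test, adjusted p = 2.43e-05). All 4 were predicted to pair. In the CDS the cytosine at chr12:66219078 had 12 of 74 reads unconverted (16.2%; Fisher's exact test, adjusted p = 5.88e-06), and its 7 neighbors within 10 nt 0.735% to 6.45%. The other CDS calls belonged to a run of 6 cytosines, from chr12:66219140 to chr12:66219146, all at 11.8% to 17.1% and a coverage of 33 to 35, of which 2 passed the threshold. The HMGA2 5′UTR as a whole had 1.68% unconverted reads (95% Wilson interval 1.38 to 2.05).

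HMGN2, a nucleosome-binding protein, had its calls in different places of 1 exon in the libraries. Its 5′UTR is 173 nt long in the single basic transcript. The segment from 27 to 70 nt was set to end at the last MCF10A call. In MCF10A its 17 kept sites had 65 of 299 counts unconverted (21.7%; 95% Wilson interval 17.4 to 26.8) at a coverage of 10 to 21, and 6 were called. The sites share these few reads, so the interval is too narrow. The lowest ratio among these 17 was 16.7% and the highest 30.8%, so called and uncalled sites of this segment were alike in ratio. The highest coverage among the calls was 21, at chr1:26798975, with 5 unconverted reads (23.8%; Fisher's exact test, adjusted p = 0.00649). At chr1:26798984 6 of 20 were unconverted (30%; Fisher's exact test, adjusted p = 3.23e-04). In MDA-MB-468 only 1 site of this segment was kept, with 2 of 10 reads unconverted, and 4 of the MCF10A calls had 2 of 5 there, so the ratios of MDA-MB-468 were not lower in this segment at its few reads.

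Further on, from 152 to 173 nt, the libraries differed in ratio. This segment was set to start at the first MDA-MB-468 call, so its higher share in MDA-MB-468 follows in part from that choice. The 13 kept sites of MDA-MB-468 had 64 of 279 counts unconverted (22.9%; 95% Wilson interval 18.4 to 28.2) at a coverage of 17 to 25. Of them 8 were called, from chr1:26799082 to chr1:26799097. The sites again share reads, so this interval is too narrow as well. The same 13 sites in MCF10A had 10 of 830 (1.20%; 0.656 to 2.20) and no call. In MDA-MB-468 8 of 25 reads were unconverted at each of chr1:26799087, chr1:26799088 and chr1:26799091 (32.0%; Fisher's exact test, adjusted p = 2.58e-06), against 2 of 81, 2 of 80 and 1 of 66 in MCF10A. The 8 called sites had 20% to 32.0% in MDA-MB-468, where their calls picked them, and 0 to 2.50% in MCF10A. The gap between these ranges follows in part from that selection.

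None of these differences passed the test between the libraries over all sites kept in both, of which 0.0893% differed. The smallest adjusted p was 0.0964, at chr1:26799091 (two-sided Fisher's exact test, unadjusted p = 9.37e-05, 30.5 percentage points higher in MDA-MB-468). Adjusted over the sites called in at least 1 library alone, 33 HMG sites were tested and 8 passed, all of them these HMGN2 sites. Their adjusted p ran from 0.00148 to 0.0294 (two-sided Fisher's exact test). Of the 12052 sites so tested 15.0% passed. That choice of sites uses the same reads as the test. The 51 nt window of 7 of the 8 matched a place within the processed pseudogene HMGN2P4 on chromosome 5, and reads from there cannot be told apart from reads of HMGN2 by such a window. Between both segments, from 86 to 151 nt, MCF10A had 1.0% and MDA-MB-468 2.73%.

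**Figure D3:**
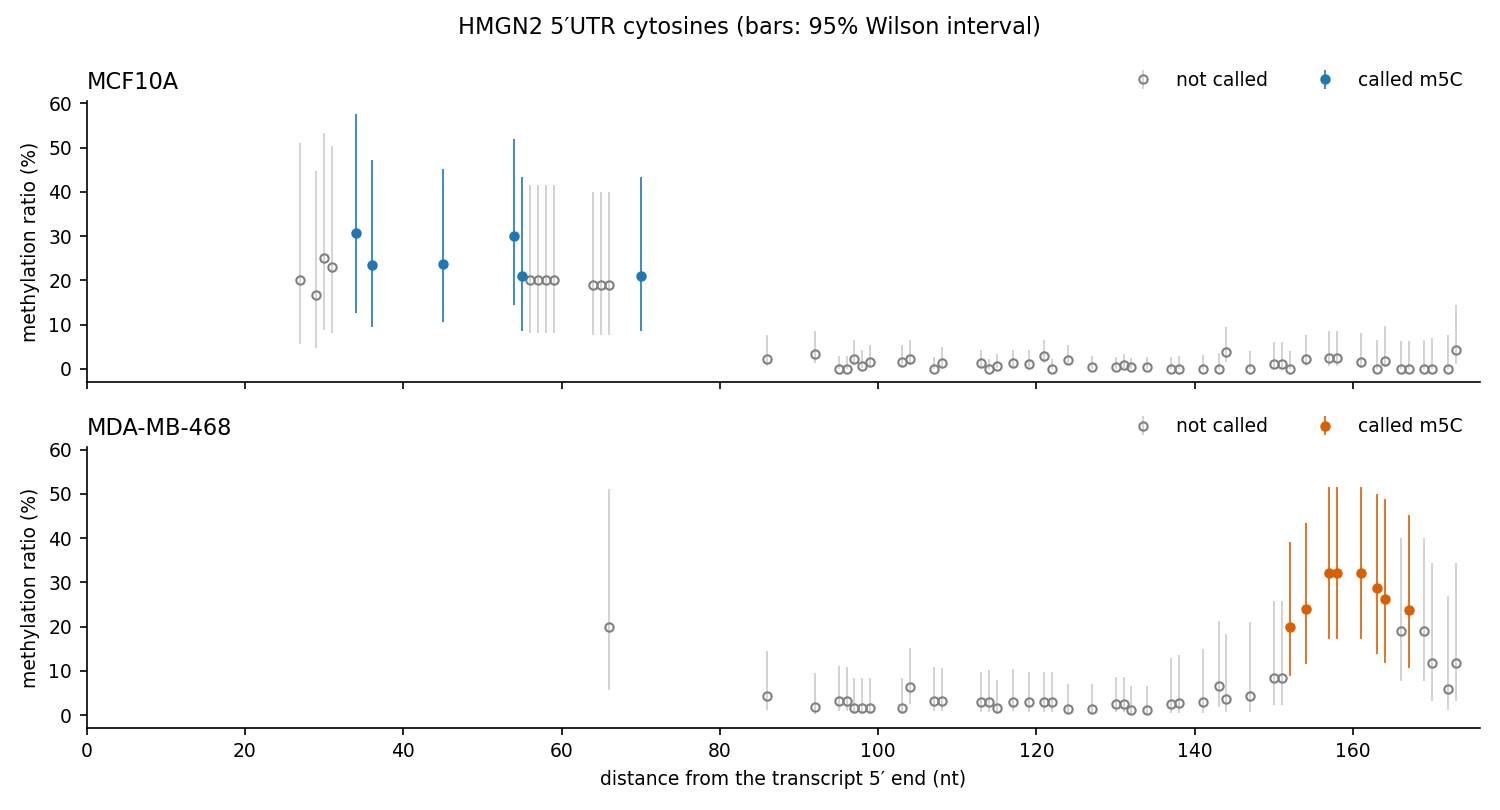
Methylation ratio (y axis, percent) with its 95% Wilson interval for each kept HMGN2 5′UTR cytosine by distance from the transcript 5′ end (x axis, nt), for MCF10A above and MDA-MB-468 below, with filled points for called sites. The MCF10A calls lie at 34 to 70 nt and the MDA-MB-468 calls at 152 to 167 nt, where MCF10A stays at 0 to 2.50%.

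HMGN3, another nucleosome-binding protein, had its higher unconverted share in MCF10A. In MCF10A only 7 of 38 5′UTR cytosines were kept, 13 to 36 nt from the nearest 5′ end, at a coverage of 10 to 16. All 7 had ratios of 21.4% to 30%, which summed to 23 of 95 counts (24.2%; 95% Wilson interval 16.7 to 33.7). This interval, too, counts shared reads more than once and is too narrow. In MDA-MB-468 24 were kept, none above 5.00%, with 4 of 625 counts unconverted (0.640%; 0.249 to 1.63). The 2 calls, at chr6:79944308 and chr6:79944313 on the minus strand, had 4 of 16 and 4 of 15 reads unconverted in MCF10A (25% and 26.7%; Fisher's exact test, adjusted p = 0.0266 and 0.0208). In MDA-MB-468 0 of 9 and 0 of 14 were. The second was kept in both libraries and did not pass the test between them (Fisher's exact test, p = 0.0996, adjusted p = 1.0). With 0 of 14 reads the ratio there could still have reached 21.5% by the 95% interval.

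HMGN1, the third nucleosome-binding protein of the set, had 2 calls, both in MCF10A. In the 5′UTR at chr21:40720966, minus strand, 5 of 24 reads were unconverted (20.8%; Fisher's exact test, adjusted p = 0.0120) against 0 of 11 in MDA-MB-468 (p = 0.157 between the libraries, adjusted p = 1.0). Its 3 kept neighbors within 10 nt were at 14.3% to 21.4%, so the call was not set apart from them. In the CDS at chr21:40717130 7 of 63 reads were unconverted (11.1%; Fisher's exact test, adjusted p = 0.0291) against 1 of 55 (1.82%; p = 0.0660 between the libraries, adjusted p = 1.0). The 51 nt around that coding site matched 3 other places, each within a processed pseudogene of HMGN1 (HMGN1P36, HMGN1P37 and HMGN1P38). The CDS of HMGN1 had the highest unconverted share of the coding sequences in MDA-MB-468, 5.15% (95% Wilson interval 3.87 to 6.82) without a call.

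HMGN4, whose gene resembles a processed copy of HMGN2, had 167 kept sites in MCF10A against 99 in MDA-MB-468 and no call. Its unconverted share was 1.48% (95% Wilson interval 1.17 to 1.87) and 1.23% (0.820 to 1.84), below that of all mRNA sites in both libraries. In the CDS, where 58 and 53 of 60 cytosines were kept, it was 1.16% and 0.812%, the lowest of the coding sequences in each library among those with over 100 counts. HMGN4 was thus the member with the largest part of its coding cytosines kept.

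HMGB2, a DNA-bending HMG-box protein of proliferating cells, had its calls in the 5′UTR of exon 1 in both libraries. The share of unconverted reads over this 5′UTR was 6.14% in MCF10A (95% Wilson interval 5.28 to 7.12) and 9.67% in MDA-MB-468 (7.81 to 11.9), above the 2.70% and 2.56% of all 5′UTR sites. The share did not rest on the called sites alone, since the median ratios of the kept sites were 6.67% and 8.57%. An unconverted read was seen at 33 of 35 kept sites of MCF10A and at 27 of 30 of MDA-MB-468. At the MCF10A median coverage of 96.0 the background share alone can give one at most sites, so that count says little of spread. In MCF10A the calls were at chr4:174255455, chr4:174255457 and chr4:174255488 on the minus strand, with 9 of 111, 12 of 113 and 6 of 46 reads (8.11%, 10.6% and 13.0%). In MDA-MB-468 5 sites from chr4:174255489 to chr4:174255505 were called, each with 5 of 29 or 30 reads (17.2% or 16.7%; Fisher's exact test, adjusted p = 0.0211 or 0.0244). The same 5 had 5.56% to 7.32% in MCF10A. No site was called in both libraries and none differed between them (Fisher's exact test, adjusted p = 1.0 for each). The calls thus picked different cytosines of a region whose unconverted share was above that of all 5′UTR sites in both. The CDS of HMGB2 had 2.02% and 2.94% and no call.

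HMGB1, the DNA-bending protein that also acts as an alarm signal outside the cell, had 73 kept sites in MCF10A against 15 in MDA-MB-468, with 1.32% (95% Wilson interval 0.854 to 2.03) and 1.23% (0.421 to 3.57) of reads unconverted. HMGB3, its X-linked relative, had 21 and 58 kept sites, none in the 5′UTR, with 1.77% (0.859 to 3.60) and 1.85% (1.36 to 2.51). Neither had a call. Where 10 reads covered a site, no fewer than 4 unconverted ones led to a call in either library, a ratio of 40%, so a lower ratio was not detectable at such sites. No 3′UTR site of HMGB1 was kept in either library.

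At the 749 HMG sites kept in both libraries MCF10A had 19 calls and MDA-MB-468 had 20. In both 6 were called, all in HMGA1, which are 31.6% of these MCF10A calls and 30% of these MDA-MB-468 calls. Over all sites kept in both, mitochondrial ones included, 5043 were called in both, or 52.7% and 67% of the calls there. None of the 749 passed the two-sided Fisher's exact test between the libraries after adjustment, where 0.0893% of all sites kept in both did, 0.0691% lower and 0.0202% higher in MDA-MB-468, and 18 (2.40%) had an unadjusted p under 0.05, where 1.14% of all such sites did. Of these 18, 11 were in the HMGN2 5′UTR and all were higher in MDA-MB-468, 6 were in HMGA1 with 3 in each direction, and 1 was in HMGB3. Over the shared sites of HMGN2 1.16% of MCF10A reads and 5.07% of MDA-MB-468 reads were unconverted. Over those of HMGA1 it was 1.73% (95% Wilson interval 1.65 to 1.81) and 1.67% (1.53 to 1.81), with overlapping intervals.

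The called sites were compared in what the choice of genes did not use. Within the first 100 nt of the nearest 5′ end, 13 of 306 kept 5′UTR sites were called in MCF10A (4.25%) and 4 of 199 past it (2.01%). In MDA-MB-468 the order was opposite, with 6 of 164 (3.66%) and 8 of 118 (6.78%), the last all in HMGN2. The share of unconverted reads was higher in the first 100 nt in both libraries, at 2.66% against 1.30% and 2.31% against 1.87%. Of the sites predicted to pair MCF10A had 6 calls among 189 and MDA-MB-468 2 among 127, and of the others 29 among 1142 and 18 among 706. Neither the split by position nor that by pairing was computed over all mRNA sites. Whether these shares are particular to the HMG genes was thus not tested.

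No HMG site at the third base of CTCCA, on the strand of the gene, was called, out of 8 and 5 kept in MCF10A and MDA-MB-468. Over all mRNA sites at that base 0.527% and 0.372% were called. In the CNGGG context (the first base), known for the methyltransferase NSUN2, 2 of 34 and 2 of 23 were called, where 2.17% and 1.82% of all mRNA sites in it were. The letters GGGG before the called cytosine recurred in HMGA1 and HMGA2 and were counted after they had been seen. As the last base of GGGGC, MCF10A had calls at 5 of 16 HMG sites (31.2%) and MDA-MB-468 at 2 of 11 (18.2%), and over all mRNA sites 5.25% of 10314 and 4.20% of 9002. The 5 were the HMGA1 CDS call, the HMGA2 call at chr12:66219078 and the HMGA1 3′UTR calls at chr6:34213773, chr6:34213826 and chr6:34213893. At the last pair 7 of 37 and 5 of 33 reads were unconverted.

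The depth of the genes set which sites could be kept, so it is given as a description. Per exonic cytosine, HMGA1 had 135 reads in MCF10A against 41.0 in MDA-MB-468, HMGB2 37.2 and 12.7, HMGN1 24.8 and 16.1, and HMGN2 16.1 and 6.31. HMGN4 had 12.5 and 5.77, HMGN3 6.13 and 7.15, HMGA2 4.92 and 0, HMGB1 1.34 and 0.221, and HMGB3 1.04 and 3.47. The median gene had 4.32 and 3.05, so HMGA1 was the deepest member in both libraries and HMGB1 and HMGB3 the shallowest in MCF10A. Relative to the median over 6781 genes, the log2 ratio of MDA-MB-468 over MCF10A was -1.22 for HMGA1, -1.05 for HMGB2, -2.10 for HMGB1 and 2.24 for HMGB3. These lay outside the middle 50% of genes, which ran from -0.94 to 0.85. The others lay inside it, from -0.85 for HMGN2 to 0.73 for HMGN3. Cytosines with under 5 reads were not listed and counted as 0, which weighs most on shallow genes. HMGB1 had 124 and 25 of 1355 cytosines listed in MCF10A and MDA-MB-468, and HMGB3 had 92 and 129 of 760. The ratios of HMGB1 and HMGB3 thus rest on few cytosines. For each gene, the library with fewer reads per cytosine had fewer calls in HMGA1, HMGA2 and HMGN1 and more calls in HMGN2, HMGN3 and HMGB2. The part of depth in these counts was not tested. A lower share of cells with a message and less of it in each cell cannot be told apart in such libraries.

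**Figure D4:**
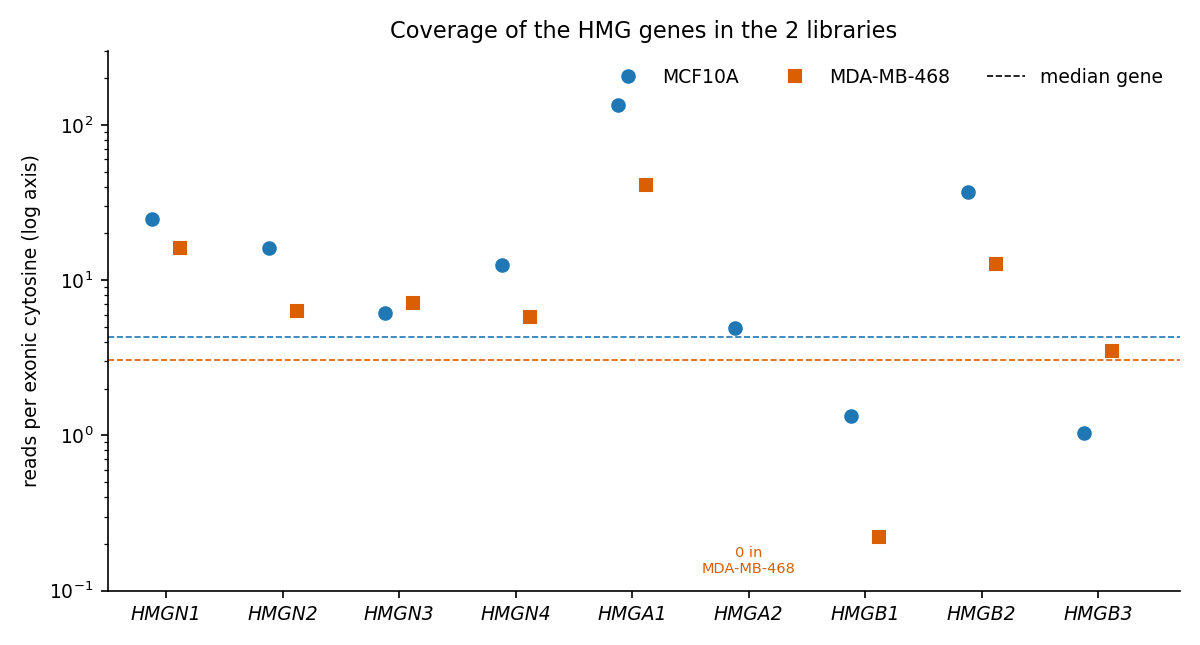
Mean number of reads per exonic cytosine (y axis, log axis) for each HMG gene (x axis), with circles for MCF10A, squares for MDA-MB-468 and dashed lines for the median gene of each library (4.32 and 3.05). HMGA1 is highest in both (135 and 41.0), and HMGA2 is at 0 in MDA-MB-468.

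Coverage within the coding sequences differed by whether a stretch recurs in the genome. With C read as T, the 51 nt around a cytosine matched another place exactly for 400 of 898 HMG coding cytosines (44.5%). Of these MCF10A kept 16.2% and MDA-MB-468 9.75%, and of the others 63.9% and 45.0%. In HMGB1 93.3% of coding cytosines recurred, and 10 of these 97 were kept in MCF10A beside 6 of the other 7. In HMGN2 89.1% recurred, and 2 of these 49 coding cytosines were kept in each library beside 0 of the other 6. HMGB3 had 84.8%, HMGA1 57.6% and HMGN1 51.9%, and in HMGN1 the shares kept in MCF10A were close, at 23.8% and 28.2%. In HMGN4 none recurred, and nearly all coding cytosines were kept. HMGN3 also went against the pooled shares, as HMGN2 did, with 4 of its 5 recurring coding cytosines kept in MCF10A and 37.5% of the rest. In 5′UTRs the shares kept were alike in MCF10A, at 40.8% of 71 recurring cytosines and 37.1% of the others, and were 35.2% and 20.4% in MDA-MB-468.

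**Figure D5:**
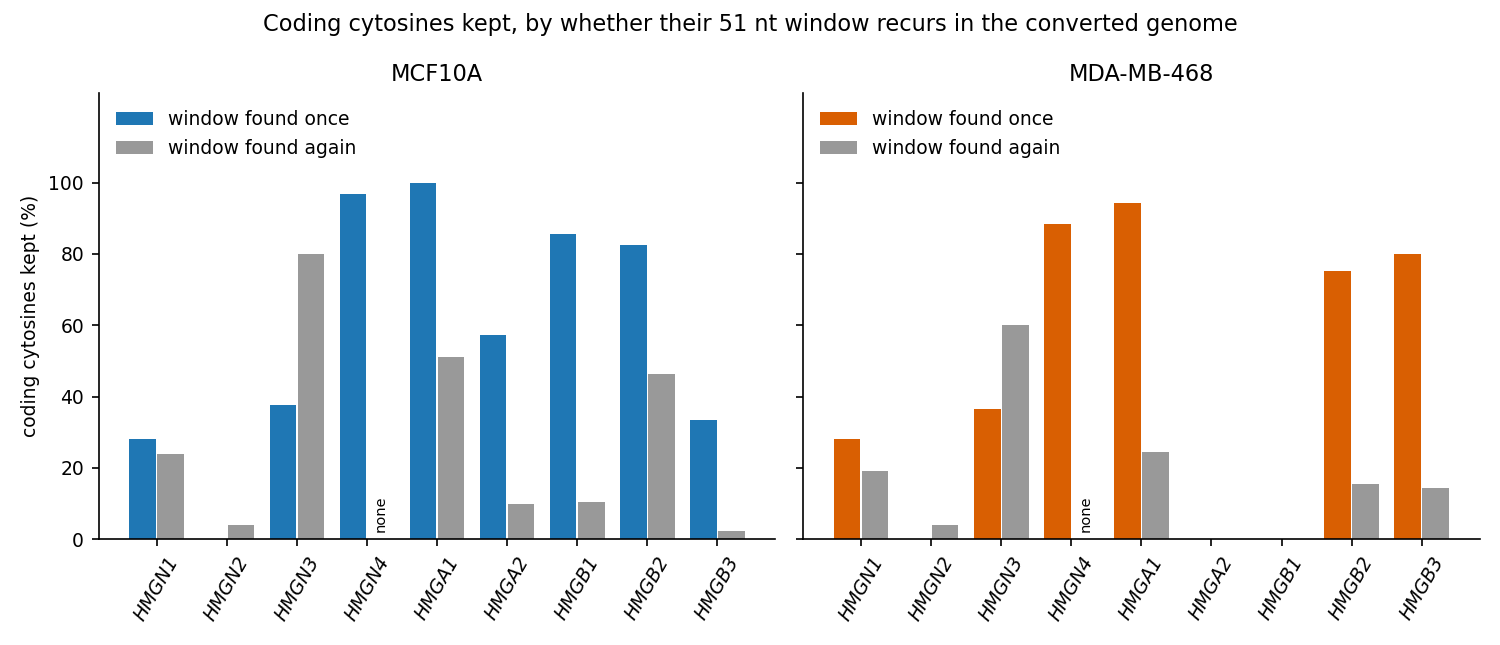
Percentage of coding cytosines with a coverage of at least 10 (y axis) for each HMG gene (x axis), in MCF10A at left and MDA-MB-468 at right, split by whether the 51 nt window, with C read as T, was found once (colored bars) or again (gray bars) in the converted genome. In HMGB1 of MCF10A 85.7% of the unique and 10.3% of the recurring cytosines were kept, and HMGN4 has no recurring window.

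At the edge of the coverage minimum, the 88 HMG sites of MCF10A with a coverage of 9 had 3.03% unconverted reads and the 84 with 10 had 2.14%. In MDA-MB-468 the 37 sites with 9 had 5.41% and the 26 with 10 had 1.92%.

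A list of 28 related chromatin genes, chosen with earlier results known, gave the family a wider setting. It held other HMG-box genes, linker histones, and histone chaperones or partners. In MCF10A 122 of 5214 sites were called (2.34%) in 10 of the 24 genes with kept sites, and in MDA-MB-468 78 of 5322 (1.47%) in 8 of 25. Over all kept sites, which were not matched to these for coverage, 0.960% and 0.840% were called. H1-10, a linker histone, had 27 calls among 492 sites in MCF10A and 30 among 476 in MDA-MB-468. SOX4, an HMG-box transcription factor, had 17 among 337 and 20 among 719. NPM1, a nucleolar histone chaperone, had calls at 22 of 72 sites in MCF10A, all in the 5′UTR, and at 0 of 53 sites in MDA-MB-468. HMG20B, an HMG-box protein, had 9 in each. The HMG shares beside these were 2.63% and 2.40%, and 8 of the 20 calls behind the second were the HMGN2 stretch.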

How the data were processed

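The authors used Trim Galore for trimming and MeRanTK for alignment to hg19 and for the cytosine counts, and the labels also list Bismark. Versions are not given in the sources used here. Per the file headers, the deposited counts are unconverted and converted reads per cytosine, not normalized, from a coverage of 5. A site was kept here when 10 or more reads covered it and it lay on the mitochondrial chromosome or, same strand, in an exon of a basic transcript (GENCODE 44, lifted to GRCh37). Python 3.11.15, scipy 1.17.1 and pandas 2.3.3 gave Fisher's exact tests, Benjamini-Hochberg adjustment over all kept sites (threshold 0.05) and Wilson intervals. ViennaRNA 2.7.2 folded full transcripts at 70 degrees with pairs within 150 nt, in windows of 2000 nt for transcripts over 8000 nt. Each test uses 1 library per line. The code was tested on simulated data. Genes, lists and the rule for named sites (all members, and per gene and line the 3 called sites of highest coverage with a ratio of at least 20%) were chosen with earlier results of these data known. Alternatives are given at the end.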

Additional observations from a re-analysis of the deposited data

Results flagged for a closer look

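Sites in introns of the HMG genes, which no comparison above used, were tested against the same background as the exonic sites and held to the largest p that gave an exonic call. In MCF10A 10 of 463 intronic sites passed the threshold and in MDA-MB-468 11 of 175, with 2.36% and 4.87% of reads unconverted. The share of all intronic sites past the threshold was not computed. These counts can therefore not be read as particular to the HMG genes. All 11 of MDA-MB-468 were in HMGA1, from chr6:34206028 to chr6:34206041, at 33.3% to 54.5% and a coverage of 10 to 14. Of the 10 in MCF10A 7 lay at chr6:34206033 to chr6:34206041 in HMGA1, at 36.4% to 50%, and 3 at chr12:66219233 to chr12:66219237 in HMGA2, at 50% to 60%, all at a coverage of 10 or 11. The 7 HMGA1 positions of MCF10A were past the threshold in both libraries. These are signals outside the exons of the basic transcripts of these genes, and exons of transcripts outside the basic set were not checked. The intronic sites had no adjustment of their own, and no difference between the libraries was tested.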

How the results depend on the processing

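Of 128 values recomputed under other settings, 99 stayed within 1.5 times the count or inside the interval and 29 did not; the cause was not tested where none is given. Requiring a ratio of at least 0.2 left 13 calls in MCF10A (5′UTR 11, CDS 0, 3′UTR 2) and 8 in MDA-MB-468 (5′UTR 8, 3′UTR 0). Leaving out recurring 51 nt windows gave 6 calls in 3′UTRs of MCF10A, and 11 in all and 7 in 5′UTRs of MDA-MB-468. With 31 nt windows, added after seeing the data, 17 (CDS 3, 3′UTR 1) and 7 (5′UTR 6, 3′UTR 1) were left. Sites kept in both libraries held 19 MCF10A calls (5′UTR 6, CDS 2). Unconverted shares as means of site ratios were 3.19%, 2.63% and 2.39% (5′UTR, CDS, 3′UTR) in MCF10A and 3.24% and 2.51% (5′UTR, 3′UTR) in MDA-MB-468. Without recurring windows they were 1.56% (3′UTR, MCF10A) and 1.70% in both UTRs of MDA-MB-468, and without paired sites 1.94% (3′UTR, MCF10A). Tested over called sites alone, 8 of 33 HMG sites differed between the libraries, where 15.0% of all sites so tested did. A coverage minimum of 20, the binomial test, nuclear sites alone, the background over all deposited sites and CDS before UTR kept every call count within 1.5 times. The background over all deposited sites ended 8 calls of MCF10A and 2 of MDA-MB-468, and nuclear sites alone ended 3 of MCF10A. Depth scaled by total counts kept the sign of all 8 log2 ratios. No paired analysis was possible because the labels give 1 library per line and no replicate numbers. Calls at a coverage of 25 or less, which include those of HMGN2 and HMGN3, rest on 4 to 8 unconverted reads.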
